A study of Drosophila melanogaster with 20 samples.

Results

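Minimal first introns are the short gaps of 100 bp or less that separate the first exon from the second in many *Drosophila* genes. They were taken from the deposited list of first introns of genes regulated in eye/antennal imaginal discs (EAD) bearing rasV12scrib1 clones relative to discs with FRT82B control clones. An intron was kept when it measured 100 bp or less and shared neither its start nor its end with any other intron of the list, so that introns with alternative splice sites or nested start sites at the same boundary were left out. This gave 1368 introns of 4749 distinct first introns, or 28.8% (95% Wilson confidence interval 27.5 to 30.1%).

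The series holds RNA of 20 samples of mosaic EAD from third-instar larvae raised at 25 °C, in 6 genotypes, and the list rests on 4 rasV12FRT82Bscrib1 samples against 4 FRT82B samples. All discs were mosaics made with MARCM, in which FLP recombinase driven by *eyeless* acts at the FRT82B site so that GFP-marked clones arise among normal neighbors, and the control clones carry the same FRT82B chromosome without the lesions. The rasV12FRT82Bscrib1 clones expressed the activated Ras and were homozygous for the scrib1 allele of the polarity gene *scribble*. Whole discs were sequenced, so clone and neighbor cells are mixed.

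Each entry of the list consists of a position in the dm3 build alone. No gene name, direction of change, expression value or replicate is attached, so the tissue could not be checked against marker genes and depth is unknown. All values below describe annotated regions of regulated genes, and intervals cover counting error only. Introns are not replicates of a condition, and none of the differences between classes of introns was tested.

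Splicing removes an intron after the spliceosome has recognised its 5′ and 3′ splice sites and the branch point between them. In *Drosophila*, very short introns are generally recognised as a unit across the intron, whereas long introns leave room for enhancers and depend more on recognition of the neighboring exons. First introns are of interest here because transcription factor motifs, such as those of AP-1, Ets21c and Ftz-F1, were searched by the authors in the first intron and in 5 kb of upstream sequence of each regulated gene.

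The lengths of minimal first introns fell into a narrow peak. The median was 61 bp (95% order-statistic interval 61 to 62 bp), with quartiles of 57 and 68 bp, and 58 bp was the most common length, with 84 introns. Between 55 and 64 bp lay 700 introns, which is 51.2% of all, and 1198 (87.6%) measured 50 to 75 bp. Below 50 bp the numbers fell off at once, with 12 introns (0.877%), whereas the upper side thinned out slowly, with 158 introns (11.5%) from 76 to 100 bp. At the limit itself the numbers were low, with 4 introns of 99 bp and 8 of 100 bp inside it, and 2 introns that were longer by 1 bp and 8 that were longer by 2 bp outside it. The limit therefore ran through the tail and not through the peak.

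**Figure D1:**
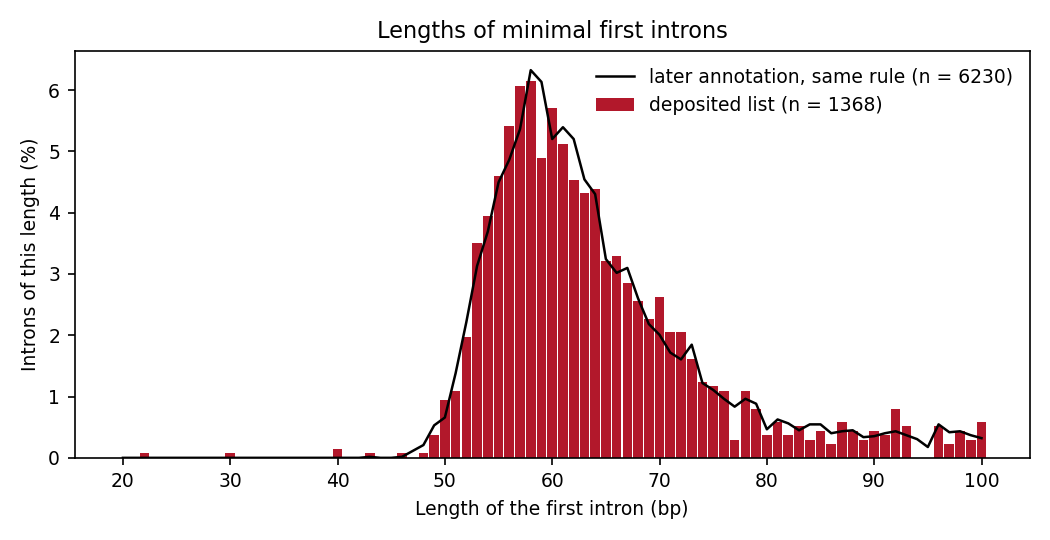
Percent of introns at each length in bp, for the 1368 minimal first introns of the list (bars) and the 6230 introns that the same rule gives in the later BDGP6.54 annotation (line). Both peak at 58 bp, and the bars below 43 bp have no counterpart in the line.

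The same rule applied to protein-coding transcripts of the later BDGP6.54 annotation gave 6230 introns with a median of 62 bp (61 to 62 bp), quartiles of 57 and 68 bp and the same most common length of 58 bp. The shortest of those measured 43 bp, whereas 4 listed introns were shorter. These were an intron of 22 bp at chrX:21175504-21175525 on the minus strand, behind a first exon of 37 bp, and one of 30 bp at chrYHet:337250-337279 on the plus strand, behind a first exon of 116 bp. The other pair measured 40 bp each, at chr2L:20901299-20901338 on the plus strand and at chr3R:19427100-19427139 on the minus strand, with first exons of 165 and 38 bp. At the other end, 8 introns reached 100 bp, and the first 3 by position were chr2R:5939207-5939306, chr2R:6595527-6595626 and chr2R:7362215-7362314.

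A plain example of the class, at the most common length of 58 bp, is the intron at chr2L:4883588-4883645 on the plus strand, which followed a first exon of 417 bp and was listed in 1 row. The corresponding first introns of 58 bp by position on the other arms were chr2R:2767311-2767368, chr3L:1625017-1625074, chr3R:610097-610154 and chrX:11456314-11456371. Their first exons ranged from 290 to 907 bp, so introns of equal length lay at very different distances from their start sites. Chromosome 4 held no intron of 58 bp in this class.

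Minimal first introns were listed on all major arms, with the lowest shares on the X and on chromosome 4. They made up 27.2% of the distinct first introns on 2L (252 of 928), 31.7% on 2R (287 of 905), 29.3% on 3L (290 of 990) and 32.0% on 3R (353 of 1102). On the X the share was 22.9% (176 of 767, 95% Wilson interval 20.1 to 26.1%), and the interval overlapped that of 2L (24.4 to 30.1%) but not those of 2R (28.8 to 34.8%), 3L (26.5 to 32.2%) or 3R (29.3 to 34.8%). Counted among introns with unshared ends only, the share on the X was 40.2% (35.7 to 44.8%) and those of the large autosomal arms were 45.5 to 50.4%, and the interval of the X then overlapped those of 2L (41.4 to 49.7%), 2R (43.6 to 51.5%) and 3L (44.5 to 52.5%) but not that of 3R (46.7 to 54.1%). On chromosome 4, 4 of 38 introns belonged to the class, which is 10.5% with a wide interval of 4.17 to 24.1%. A further 6 lay on 2RHet, 3RHet and YHet, among 19 distinct first introns outside the arms.

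The later annotation had the same order for the X and chromosome 4, with shares of 25.1% (23.6 to 26.5%) and 6.28% (3.63 to 10.7%), against 32.8 to 36.0% on the other arms. Over all chromosomes the share was 32.2% (31.5 to 32.9%) in the annotation and 28.8% in the list. The annotation covers protein-coding genes whether or not they are transcribed in the EAD, includes the listed genes and was made later, and the part of these differences in the lower share was not tested.

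The minimal introns of the X were also longer. Their median was 66.5 bp (64 to 68 bp, n = 176), with quartiles of 60 and 73 bp, whereas the 1182 introns on 2L, 2R, 3L and 3R had a median of 61 bp (60 to 61 bp) and quartiles of 57 and 67 bp. Taken arm by arm, the medians were 60 bp on 2L and 61 bp on 2R, 3L and 3R, with intervals between 60 and 63 bp that did not reach that of the X. Introns of 65 bp or more, a limit set after the lengths were seen, made up 56.2% of the class on the X (99 introns, 48.9 to 63.4%) and 33.6% on the 4 large autosomal arms (397 introns, 31.0 to 36.3%). The quartile ranges of both groups overlapped.

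**Figure D2:**
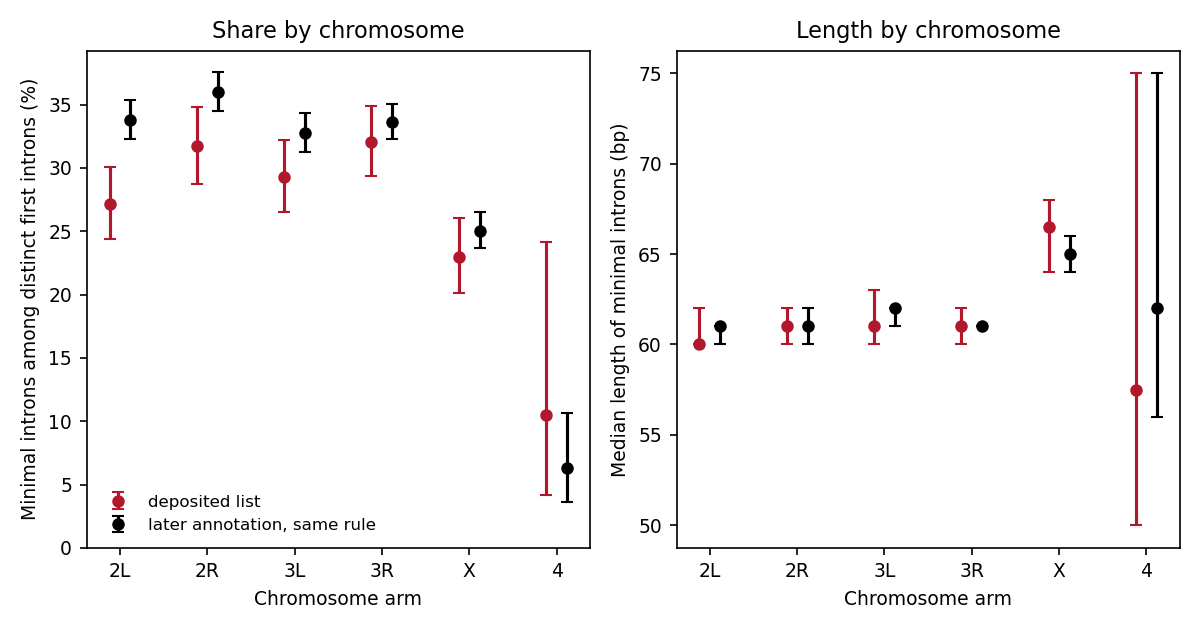
Left, percent of distinct first introns that are minimal by the rule, with 95% Wilson intervals. Right, median length of the minimal introns in bp with 95% order-statistic intervals, on an axis that does not start at 0. Red points are the deposited list and black points the later annotation. The X stands below the large autosomal arms in share (22.9%) and above them in length (66.5 bp), and chromosome 4 rests on 4 listed introns.

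The median was higher on the X in each subset of introns examined, with 1 exception given with the coding start below. These subsets are overlapping splits of the same introns, whose lengths the rule limits, so their agreement adds no separate support. Behind first exons of 200 bp or less, the medians were 67 bp on the X (64 to 70 bp, n = 73) and 62 bp on the autosomal arms (61 to 62 bp, n = 571). Behind longer first exons they were 66 bp (63 to 68 bp, n = 103) and 60 bp (60 to 61 bp, n = 611). On the plus strand the median was 67 bp on the X and 61 bp on the autosomal arms, and on the minus strand 66 and 61 bp. The intervals on the minus strand met at 62 bp (62 to 69 bp and 60 to 62 bp). Introns listed in more than 1 row had a median of 66 bp on the X (63 to 69 bp, n = 18). For the autosomal arms it was 62 bp (60 to 64 bp, n = 139), and these intervals overlap. In the later annotation, which includes the listed genes, 867 introns of the X had a median of 65 bp (64 to 66 bp). The 5338 of the autosomal arms had one of 61 bp, the same order as in the list.

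Each row of the intron list could be joined to a row of the upstream list, since both follow the same order of transcripts and each upstream region ends at a start site. This gave the strand and the length of the first exon for all 1368 introns, of which 692 (50.6%) lay on the plus strand. The combination of arm, strand, first exon length and intron length was the same as that of exactly 1 annotated first intron for 800 of 1362 minimal introns on the arms (58.7%, 56.1 to 61.3%). When the first exons were changed by 7 or 11 bp in either direction, only 59 to 73 introns had such a partner. The later annotation differs from the one the authors used, so a missing partner does not mark a wrong start site. Matched and unmatched introns had nearly the same first exons, with medians of 213 bp (197 to 222 bp) and 212.5 bp (189 to 233 bp).

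The first exons in front of minimal introns were close in length to those of the whole list. Their median was 211.5 bp (198 to 220 bp), with quartiles of 117 and 399.25 bp, and the median over all 4749 distinct introns, members included, was 223 bp (218 to 229 bp). The largest group, 363 introns (26.5%), had first exons of over 100 and up to 200 bp, and 288 introns (21.1%) had first exons of 100 bp or less, against 20.1% of all distinct introns. At the far end, 96 introns (7.02%) lay behind first exons of over 1000 bp, against 5.33% of all. The shortest first exon, 5 bp, preceded the 54 bp intron at chr3R:6051481-6051534, which was listed in 2 rows. The longest, 3781 bp, preceded a 73 bp intron at chr2R:9283020-9283092.

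First exons were longer in front of longer introns. Among introns that shared no end, the median first exon was 231 bp (216 to 248 bp) for the 804 introns of over 100 bp and under 1 kb, 325 bp (302 to 357 bp) for the 589 of 1 kb to under 10 kb and 453.5 bp (411 to 495 bp) for the 164 of 10 kb or more. The interval of the minimal class overlapped that of the next class and lay below those of the other 2. First exons of over 1000 bp did not follow this order, as they preceded 7.02% of minimal introns and 5.35%, 5.94% and 14.0% of the longer classes in turn. Within the minimal class the 2 lengths showed no steady trend, with a Spearman's rho of −0.01 and a Pearson's r of 0.02. These describe 1368 introns of 1 annotation. The median first exon was 190 bp (147 to 216 bp) for introns of 22 to 54 bp and 237 bp (216 to 266 bp) for 55 to 59 bp. It was 217 bp (190 to 235 bp) for 60 to 64 bp, 196 bp (178 to 211 bp) for 65 to 74 bp and 206 bp (179 to 245 bp) for 75 to 100 bp. The intervals of 55 to 59 bp and 65 to 74 bp did not overlap, which was not tested.

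**Figure D3:**
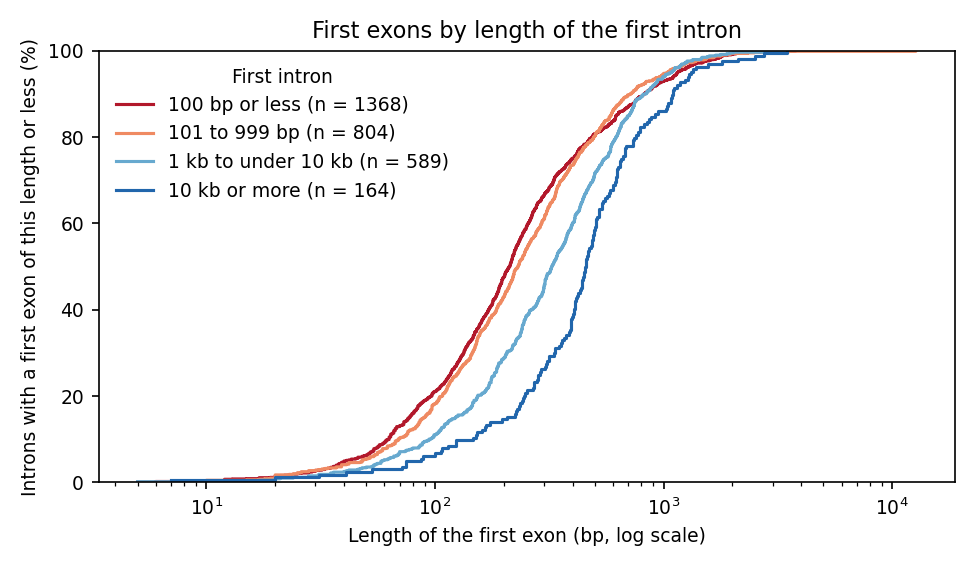
Cumulative percent of introns with unshared ends against the length of the first exon in bp (log scale), by length class of the first intron. The curve of the minimal class has the lowest median, 211.5 bp, and the class of 10 kb or more the highest, 453.5 bp.

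The distance from the start site to the end of the intron is the sum of both lengths, of which the rule limits the second. For 422 introns (30.8%) the intron ended within 200 bp of the start site, for 772 (56.4%) within 300 bp, for 1063 (77.7%) within 500 bp and for 1259 (92.0%) within 1000 bp. Counted base by base, coverage was highest 118 bp after the start site, where 17.8% of the minimal introns lay over the same base, and it was 3.14% at 500 bp and 0.877% at 1000 bp.

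**Figure D4:**
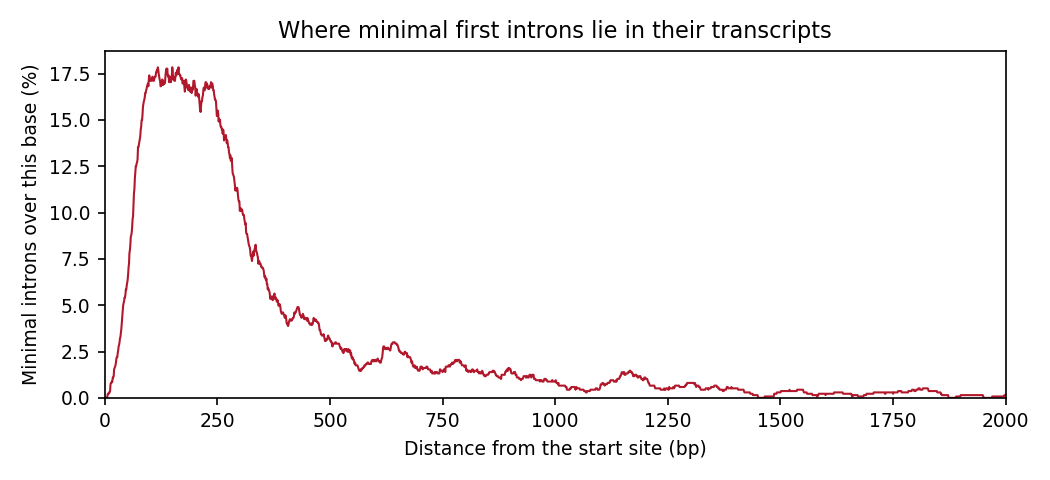
Percent of the 1368 minimal first introns that lie over each base, against the distance in bp downstream of the start site. The share is nearly level from 100 to 200 bp, with the same highest value of 17.8% at 118, 150 and 164 bp. It falls to 3.14% at 500 bp.

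Whether a first intron interrupts the untranslated leader or the coding sequence could be read for those introns whose arm, strand and lengths matched 1 annotated intron. Of the 800 matched minimal introns, 710 (88.8%, 86.4 to 90.8%) lay after the annotated coding start and 83 (10.4%, 8.45 to 12.7%) lay wholly before it, in the 5′ untranslated part. The remaining 7 differed between transcripts. The share after the coding start was 63.8% (59.1 to 68.2%) for matched introns of over 100 bp and under 1 kb, 45.0% (39.4 to 50.8%) for those of 1 kb to under 10 kb and 25.3% (17.3 to 35.3%) for those of 10 kb or more. None of these 4 intervals overlapped another. The matched introns of the longer classes were 425 of 803, 291 of 589 and 87 of 160 on the arms, in the same order. With changed first exons, 59 to 73 minimal introns still had a partner, so some matches may be coincidental. No such check is given for the longer classes. Among the 6230 introns of the later annotation that obey the same rule, 86.5% (85.6 to 87.3%) lay after the coding start.

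The introns before the coding start had short first exons, with a median of 97 bp (84 to 122 bp), whereas those after it had a median of 222 bp (213 to 235 bp). An intron after the coding start follows a first exon that holds the leader and the start codon, so the grouping itself bears on this difference. Their own lengths had medians of 64 bp (61 to 69 bp) and 61 bp (60 to 62 bp). After the coding start, the introns of the X had a median of 67 bp (64 to 70 bp, n = 78) and those of the autosomal arms 60 bp (60 to 61 bp, n = 631). Before it the order was the opposite, with 60 bp on the X (54 to 72 bp, n = 11) and 65 bp on the autosomal arms (61 to 70 bp, n = 72), but these intervals overlap.

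**Figure D5:**
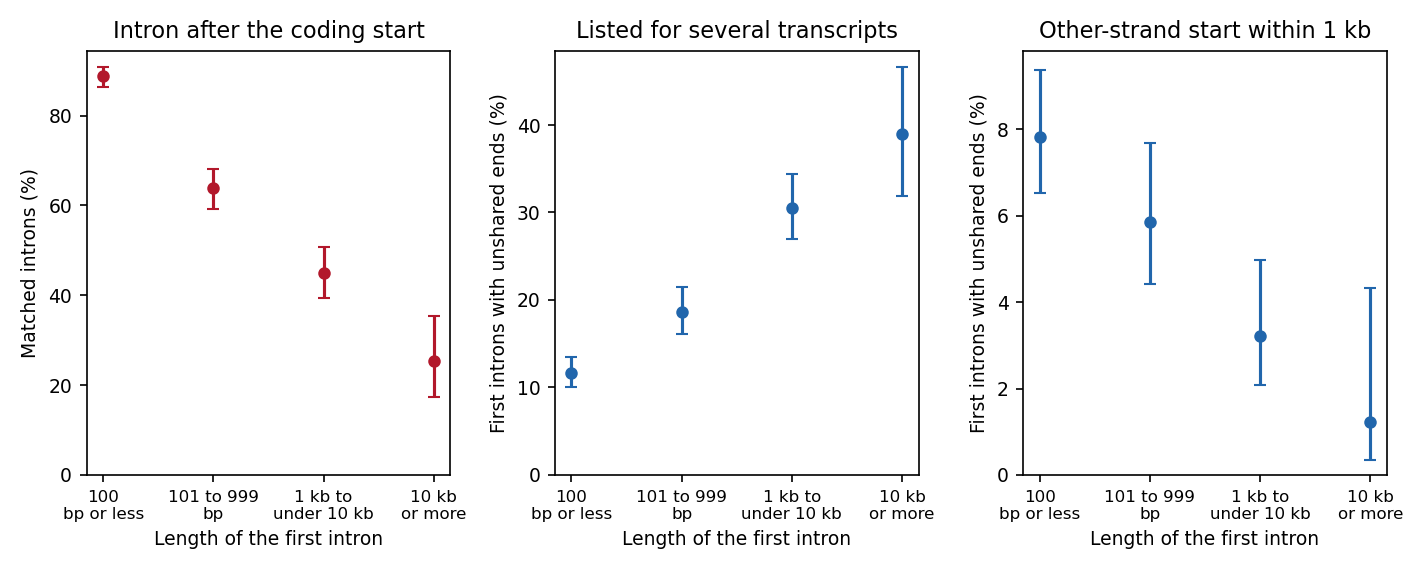
Shares by length class of the first intron, with 95% Wilson intervals. Left, introns after the coding start among those matched to the later annotation. Middle, introns listed in more than 1 row. Right, introns with a start site of the other strand, itself joined to a listed first intron, within 1 kb upstream of their own. The minimal class is highest on the left (88.8%) and right (7.82%) and lowest in the middle (11.7%).

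A retained intron whose length is a multiple of 3 keeps the reading frame, unless it holds a stop codon. Of the minimal introns, 470 (34.4%, 31.9 to 36.9%) had such a length, and 470 left a remainder of 1 and 428 (31.3%, 28.9 to 33.8%) a remainder of 2. The 3 remainders were thus close to equal shares. For introns after the coding start the share was 33.7% (30.3 to 37.2%) and for those before it 37.3% (27.7 to 48.1%). In the annotation the corresponding shares were 32.3% (31.0 to 33.5%) and 35.4% (32.0 to 38.9%).

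Most minimal introns belonged to a single listed transcript. In the list 1208 occurred in 1 row, 138 in 2 rows, 16 in 3 rows, 2 in 4 rows, 3 in 5 rows and 1 in 6 rows. This last was an intron of 100 bp at chr3R:17703794-17703893 on the plus strand, with a first exon of 136 bp and 1 start site for all its rows. Several rows were given for 160 minimal introns (11.7%, 10.1 to 13.5%), against 18.7% of introns of over 100 bp and under 1 kb, 30.6% of those of 1 kb to under 10 kb and 39.0% (31.9 to 46.7%) of those of 10 kb or more. The interval of the minimal class did not overlap that of any longer class. In the later annotation, 1598 of the 6230 introns by the same rule (25.7%, 24.6 to 26.7%) occurred for more than 1 transcript. That share is higher than in the list, so the low share is not a fixed trait of minimal introns. The reason for the difference was not tested.

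Of the 160 introns with several rows, 121 had 1 start site and 39 had more, with at most 3. These 39 are 2.85% (2.09 to 3.87%) of the minimal introns, and the share over all distinct introns was 3.05% (2.60 to 3.58%). The outermost start sites of these 39 introns were 1 to 1956 bp apart, with a median of 133 bp. The start sites of 50 introns (3.65%, 2.78 to 4.79%) were also listed with a different first intron, which was itself a minimal intron for 28 of them.

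Some minimal introns had another one nearby. No such share was computed for other introns, so whether the values below are high is not known. For 496 (36.3%, 33.8 to 38.8%) the nearest other member lay within 5 kb, and for 151 (11.0%) within 1 kb. There were 217 pairs whose introns were each other's nearest within 5 kb, 4 of which overlapped. Of the other 213, 129 (60.6%) lay on the same strand, 53 (24.9%) had start sites facing away from each other and 31 (14.6%) faced each other. The lists name no gene, so pairs within the same gene were not told apart from pairs of different genes. The closest pair, at chr2R:4058615-4058671 and chr2R:4058619-4058678 on the plus strand, overlapped by 53 bp and had first exons of 836 and 840 bp, so that both splice sites were shifted by a few bases. The closest pair without overlap lay 52 bp apart at chr2R:5592204-5592259 and chr2R:5592312-5592375, also on the plus strand.

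Start sites of the other strand were close upstream of 107 minimal introns (7.82%, 6.51 to 9.37%), within 1 kb of their own start site and with a median distance of 355 bp. Only start sites joined to a listed first intron have a known strand and could count. The 715 upstream rows without an intron added none, so such neighbors may be missed in every class. Over all distinct introns, members included, the share was 5.20% (4.60 to 5.87%). By class it was 5.85% (4.42 to 7.69%) for introns of over 100 bp and under 1 kb, 3.23% (2.07 to 4.98%) for those of 1 kb to under 10 kb and 1.22% (0.335 to 4.34%) for those of 10 kb or more. At 69 of the 107 (64.5%, 55.1 to 72.9%) the opposite start site also had a listed first intron of 100 bp or less. For longer introns with such a neighbor this held at 35 of 68 (51.5%, 39.8 to 62.9%), and the intervals overlap. Of all 4749 distinct first introns, 1565 (33.0%) measured 100 bp or less. Facing introns can each count the other, within the 107 or across both sets. The counts are therefore linked, whereas the intervals take introns as independent, and the difference was not tested.

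Minimal introns added little sequence to the search for motifs, as the limit of 100 bp fixes in advance. Every upstream region was 5000 bp long, so the intron made up a median of 1.21% and at most 1.96% of the combined length of intron and upstream region. All 1368 introns together measured 87.5 kb, less than the longest single first intron of the list, at 106117 bp. This is 0.672% of the 13.0 Mb obtained by summing the lengths of all distinct first introns. Overlapping introns were not merged in that sum, and 2001 of the 4749 (42.1%) overlapped another, so shared bases count more than once. Part of the sequence of minimal introns was listed more than once too, since 550 of them (40.2%, 37.6 to 42.8%) overlapped the upstream region of a start site other than their own. Such a region belonged to the same strand for 294 introns (21.5%), to the other strand for 245 (17.9%) and to a start site of unknown strand for 110 (8.04%), and an intron can count in several of these. At 200 introns 2 or more such regions overlapped the intron. Over all distinct introns, which include those with shared ends, the share was higher, at 45.1% (43.7 to 46.5%). It was 40.0% (36.7 to 43.5%) for introns of over 100 bp and under 1 kb and 32.3% (28.6 to 36.1%) for those of 1 kb to under 10 kb. For those of 10 kb or more it was 32.3% (25.6 to 39.8%), although a longer intron has more bases with which to touch a region.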

How the data were processed

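RNA was sequenced by the authors, mapped to BDGP R5/dm3 with Tophat and quantified with Cufflinks and DESeq2 on an Ensembl annotation, and the deposited lists hold positions of regions only. The submitters' processing notes name CASAVA 1.8.2 or 1.7, TopHat2 2.0.10 and Cufflinks 2.1.1. The deposited regions are the first introns and upstream sequences that the authors scanned for motifs in all genes past their limits on fold change and p-value between rasV12scrib1 and control discs. How transcripts were picked for each gene is not given in the sources used here. Reads per sample were not analysed here.

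Rows of both lists were read as deposited, repeated rows were merged, and the rule on length and shared ends was applied. Intron rows were joined to the next upstream row of the same chromosome within 60 rows and 20 kb. On the plus strand 1 base was added to the first exon, because both lengths then match those of annotated transcripts. An intron with several rows took its median first exon. Region coordinates follow dm3 and start at 1.

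The BDGP6.54 annotation (Ensembl release 115) is a later build and served only through lengths, strand and arm, never through positions. No gene was named, because the lists pair no region with a gene. The members, classes and measures were chosen with earlier results of these data known. Regions named are the shortest, the longest, 1 of the most common length per arm, and those with the extreme first exons, the most rows and the closest neighbor. The closest pair without overlap was added after its values were seen.

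Intervals are 95% Wilson intervals for shares and order-statistic intervals for medians. No test was run. The joining of rows and the rule were checked on lists built from the annotation. Those lists were written in a common order of transcripts, so this check takes the shared row order of the deposited lists for granted. A genome sequence of dm3 was not used here, so splice site letters and motifs were not analysed. Calculations ran in Python 3.11.15 with scipy 1.17.1 and numpy 2.4.6, and plots were drawn with matplotlib 3.10.9.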

Additional observations from a re-analysis of the deposited data

How the results depend on the processing

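No paired analysis was possible because the lists hold regions without sample values, which also meant that no replicate could be left out. Of 26 alternatives, 23 stayed within 1.5 times the main count or inside the interval of the main value. The number of minimal introns, 1368, ranged from 1260 with a limit of 80 bp to 1789 with every row of 100 bp or less counted. The median length was 61 or 62 bp throughout. The median first exon, 211.5 bp, ranged from 202 bp with the nearest start site to 213 bp over introns matched to the later annotation. That restriction and the use of the shortest first exon per intron, which gave 208.5 bp, were chosen after seeing the data. The share with another minimal intron within 5 kb, 36.3%, fell to 11.0% within 1000 bp and rose to 46.6% within 10000 bp, as the distance alone requires. The share of lengths that are multiples of 3, 34.4%, was 31.3% with 1 bp added to every length. Lengths without that base match the annotation, so the columns give no ground for adding it. The sequence features planned for a genome of dm3 were not run.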

Other observations

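Some minimal first introns lay inside a longer first intron of the list. Of the 53 (3.87%, 2.97 to 5.03%) that overlapped another distinct first intron, 45 lay wholly inside it, 16 of them in an intron of the same strand and 29 in one of the other strand. Overlap with a first intron of the other strand was noted for 29 minimal introns, which is 2.12% (1.48 to 3.03%), and for 2.34% (1.94 to 2.81%) of all distinct introns. In the longer classes with unshared ends it was 0.995%, 2.04% and 6.71% in order of length. The longest intron over each of the 53 had a median length of 8605 bp, with a range of 54 to 65240 bp. The most minimal introns in a single host were 3, inside an intron of 2092 bp at chr2R:11447228-11449319 on the plus strand, which was picked after its value was seen.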
